A study of Mus musculus with 2 samples.

Results

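The genes of cholesterol and fatty acid synthesis were examined in intraepithelial lymphocytes (IEL), which in the gut sit between the cells of the epithelium. The set holds 31 genes, chosen by symbol as members of these pathways: 15 enzymes of the sterol pathway, 5 genes that regulate it, 10 genes that make, lengthen or desaturate fatty acids, and 1 sterol carrier. All 31 matched the deposited table, among 20663 genes with a symbol of their own, and each gene is represented by its brightest probe set. The IEL came from the small intestine of C57BL/6 RAG-knockout mice, which lack T and B cells of their own, 8 weeks after they had received naive CD4 T cells in the transfer model of colitis. Every T cell studied therefore descends from transferred cells that expanded in a lymphocyte-deficient host. Cells sorted as CD4 without CD8 alpha (CD4 IEL) and cells sorted as CD4 with CD8 alpha (CD4CD8aa IEL) gave 1 array each, so that no difference below has a replicate or a test, and the labels do not say how many mice each RNA came from. Signals are multiples of the median signal of their array, and differences are log2 CD4CD8aa IEL minus CD4 IEL.

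Cells make cholesterol from acetyl-CoA through mevalonate, squalene and lanosterol, and they make fatty acids from the same acetyl-CoA through malonyl-CoA. SREBP transcription factors, held in the endoplasmic reticulum by Scap and the Insig proteins when sterols are plentiful, are the known activators of both pathways. Activated T cells are known to switch these pathways on to build membrane before they divide.

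Of the 31 genes, 22 (71.0%) were higher in CD4CD8aa IEL, most by less than 1.5-fold. Among all genes detected on at least 1 array, 54.8% were higher. Elovl6, the elongase that extends palmitate to stearate, was the only member more than 2-fold higher. For Elovl6 the signal was 20.3 on the CD4 IEL array and 44.9 on the CD4CD8aa IEL array, 2.21-fold higher. Dhcr7, the reductase that makes cholesterol from its immediate precursor, was 1.69-fold higher, Hmgcs1, the synthase that makes HMG-CoA, 1.66-fold, and Elovl5, an elongase of polyunsaturated fatty acids, 1.57-fold. Fads2, a desaturase of polyunsaturated fatty acids, was 1.62-fold lower, at signals close to the array median. The other 26 genes lay within 1.5-fold. In RNA of a sorted population, fewer cells that express a gene and less RNA per cell cannot be told apart.

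These counts stand against what all genes did. A gene was called detected where the brighter array lay above a floor of 0.4 times the array median, and all 31 members passed on both arrays, as did 14033 genes in all, while 17376 genes passed on at least 1 array. Of those 17376, 6.65% were at least 2-fold higher, as was 1 of the 31 members, and 6.28% were lower by 2-fold or more, as were 0 of the members. At 1.5-fold, 17.2% of detected genes were higher, against 4 of the 31 members, and 14.4% were lower, against 1 member. Set against all 17376 genes, the shares of members past either fold were thus no higher. Dim genes scatter widely, and 28 of the members had a signal of at least 4 times the array median on both arrays, a restriction chosen after the data were seen. Among the 7376 genes as bright as that, 1.63% were higher by 2-fold or more and 1.32% were lower by as much, against 1 and 0 of the 28 members. At 1.5-fold the shares were 9.26% higher and 4.83% lower, against 4 and 0 members, so that among bright genes the upper shares were larger for the members, on counts of 1 and 4.

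The median log2 difference of the 31 members was 0.23, against 0.06 for all detected genes, and 22 of the 31 (71.0%) lay above 0, against 54.8% of detected genes. For the bright genes alone the median was 0.24 over the 28 members and 0.07 over all 7376, with 21 members (75%) and 58.5% of all such genes above 0. The middle of the members' distribution, from the 25th to the 75th percentile, ran from -0.05 to 0.46. For all detected genes it ran from -0.31 to 0.42, so that the upper ends lay close together. All detected genes include many dim ones, which scatter more widely, and these percentiles were not taken over the bright genes alone. With the brightest probe set taken only from those that Affymetrix does not mark as shared between transcripts or prone to cross-hybridise (suffixes _s_at and _x_at), the members' median was 0.12. The median of all detected genes was not recalculated for this choice, so the 0.06 above is not its counterpart.

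**Figure D1:**
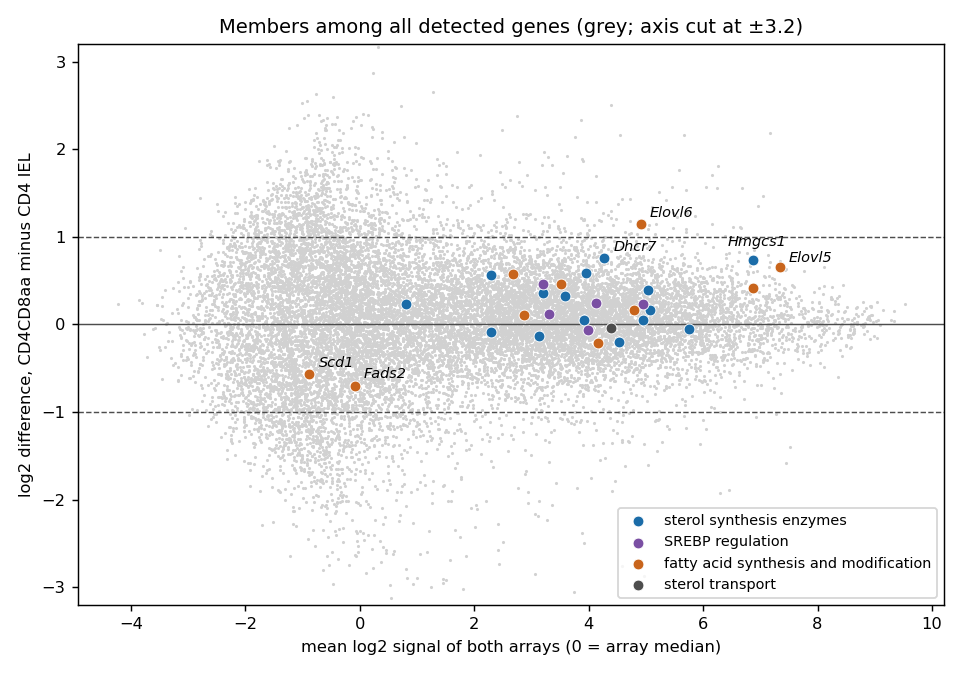
Log2 difference (CD4CD8aa IEL minus CD4 IEL, vertical axis) against the mean log2 signal of both arrays (horizontal axis, 0 is the array median) for the 17376 detected genes in grey and the 31 members in colour by role; dashed lines mark 2-fold, and 38 genes lie outside the vertical range. Elovl6 (1.14) is the only member past 2-fold, and most other members lie between the zero line and 0.76.

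Error could be gauged only from how far probe sets for one gene disagreed. The SD of their log2 differences (the same-gene SD) was 0.81 for signals under the array median and 0.45 for signals of 4 to 16. It was 0.41 for signals of 16 to 64 and 0.35 for brighter ones. It covers the arrays and the probes, not animals or RNA preparations. Against this SD at their own signal, 10 of the 31 members were more than 1 SD higher and 0 were more than 1 SD lower, where 18.1% and 13.6% of all detected genes were. The Elovl6 difference was 2.78 times its SD and that of Hmgcs1 2.06 times.

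The start regions of Elovl6, the member with the largest difference, and of Hmgcs1, Insig1 and Mvk, chosen for the motifs they hold, are shown because SREBP proteins act together with other factors near the start of their target genes. Each stretch runs from 250 bases before to 50 bases after the annotated start (RefSeq, build GRCm38.p6, plus strand). Capitals mark the SREBP consensus TCACNCCAC, the E-box CACGTG, the NF-Y box CCAAT and the GC box GGGCGG, searched on both strands.
Elovl6, chr3:129532136-129532435: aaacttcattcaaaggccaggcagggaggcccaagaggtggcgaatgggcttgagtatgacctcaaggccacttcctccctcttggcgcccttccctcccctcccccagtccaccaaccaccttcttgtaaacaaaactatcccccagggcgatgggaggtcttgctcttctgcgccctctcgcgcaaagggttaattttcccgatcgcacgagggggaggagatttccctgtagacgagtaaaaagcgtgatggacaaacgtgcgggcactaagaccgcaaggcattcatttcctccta
Hmgcs1, chr13:119690101-119690400: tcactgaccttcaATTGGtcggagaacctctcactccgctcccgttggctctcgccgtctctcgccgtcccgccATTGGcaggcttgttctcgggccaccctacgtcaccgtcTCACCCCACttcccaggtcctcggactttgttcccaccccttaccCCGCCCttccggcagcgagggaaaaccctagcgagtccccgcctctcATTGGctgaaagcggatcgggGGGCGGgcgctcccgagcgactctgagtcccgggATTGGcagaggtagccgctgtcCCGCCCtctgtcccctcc
Insig1, chr5:28071162-28071461: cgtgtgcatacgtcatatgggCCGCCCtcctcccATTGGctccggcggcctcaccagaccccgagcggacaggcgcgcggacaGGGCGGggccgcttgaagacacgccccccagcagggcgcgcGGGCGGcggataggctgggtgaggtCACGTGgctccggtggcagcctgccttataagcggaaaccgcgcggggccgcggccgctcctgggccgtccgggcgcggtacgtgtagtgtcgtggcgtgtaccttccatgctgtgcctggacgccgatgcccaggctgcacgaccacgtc
Mvk, chr5:114444019-114444318: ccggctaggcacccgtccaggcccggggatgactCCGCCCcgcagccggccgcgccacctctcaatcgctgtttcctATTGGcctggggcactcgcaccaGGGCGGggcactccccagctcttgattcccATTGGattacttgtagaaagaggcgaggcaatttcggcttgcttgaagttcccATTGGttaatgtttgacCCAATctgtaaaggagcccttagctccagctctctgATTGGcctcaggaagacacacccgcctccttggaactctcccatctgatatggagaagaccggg

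The Hmgcs1 window held the SREBP consensus once, 137 bases before the start, along with 4 NF-Y boxes and 3 GC boxes. The Insig1 window held an E-box 101 bases before the start, with 1 NF-Y box and 3 GC boxes. Mvk, whose signal differed little, had 5 NF-Y boxes. None of the 4 motifs occurred in the Elovl6 window. RefSeq windows were matched for 24 of the 31 members, some with several starts, 32 windows in all. Of these 32 windows, 1 held the SREBP consensus, 6 the E-box, 21 the NF-Y box and 23 the GC box. Among all 32851 windows of the table the shares were 1.24%, 7.15%, 37.4% and 35.7%, against 3.13%, 18.8%, 65.6% and 71.9% of the members' windows. Windows of the same gene can overlap, and those of Scap hold the same E-box, counted in each. Counted by gene, 1, 5, 20 and 19 of the 24 members held the 4 motifs, in the same order. A gene with several windows has more chances to match, and the count by gene was not made over all genes. The shares of all windows are therefore not its counterpart. All of these are matches of letters, and no binding was measured.

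The early enzymes of the sterol pathway, which lead from acetyl units to isoprenoids, differed little except for the first. Hmgcs1 read 90.7 in CD4 IEL and 150.4 in CD4CD8aa IEL, a log2 difference of 0.73. Its 5 probe sets did not give 1 answer: the others ranged from -0.13 to 0.54, and the median over all its probe sets was 0.15. Mvk, mevalonate kinase, was dim on both arrays, at 1.62 and 1.90. Pmvk, the next kinase, had 9.24 and 8.42, and Mvd, the decarboxylase that yields isopentenyl diphosphate, 8.12 and 10.4 (0.35, and -0.10 at its other probe set). None of these 3 genes reached 1.5-fold. Idi1, the isomerase of that product, had 31.8 and 35.8 (log2 difference 0.17, and 0.36 at its other probe set). Fdps, which makes farnesyl diphosphate, the branch point towards sterols and protein prenylation, had 5.05 and 4.74.

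The steps from farnesyl diphosphate through squalene to lanosterol have 3 enzymes in the set. Fdft1, squalene synthase, which commits farnesyl diphosphate to sterols, read 28.7 and 37.7, which is 0.39 on the log2 scale, and its other probe set gave 0.18. Sqle, squalene epoxidase, a rate-limiting step, lay the other way, at 24.8 and 21.6 (-0.20). Lss, which closes the ring to lanosterol, had 12.6 and 18.9, a log2 difference of 0.58 that stops just short of 1.5-fold. Of its other probe sets, the next brightest gave 0.56 and the dimmest -0.85. Fdft1 and Sqle both lay within 1 same-gene SD of 0, so that no contrast between these steps can be read.

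Among the enzymes that turn lanosterol into cholesterol, Dhcr7 and Tm7sf2 were the furthest apart on the 2 arrays. Dhcr7 had 14.9 and 25.1, a log2 difference of 0.76, measured by a single probe set. Tm7sf2, a sterol reductase, had 4.02 and 5.93 (0.56), also from a single probe set. Cyp51, the lanosterol demethylase, read 14.8 and 15.3 (0.05), with -0.13 at its next brightest probe set and 1.12 at a dim one. Nsdhl, a dehydrogenase that removes methyl groups, read 30.2 and 31.4 (0.05) at its brightest probe set, and 0.35 and 1.16 (1.54 with the floor) at a dim one, so that the median over both was 0.80. Ebp, the sterol isomerase, has a single probe set, at 55.1 and 53.3. Hsd17b7, which completes the step begun by Nsdhl, had 10.8 and 13.5 (0.32), with other probe sets from -0.92 to 1.30. Over the 15 sterol enzymes the median was 0.23, and 11 lay above 0, where 54.8% of all detected genes did. At least 1.5-fold higher were 2 (Hmgcs1 and Dhcr7) and lower were 0, where 17.2% and 14.4% of all detected genes were. Without the probe sets marked _s_at or _x_at the median of the sterol enzymes was 0.055.

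**Figure D2:**
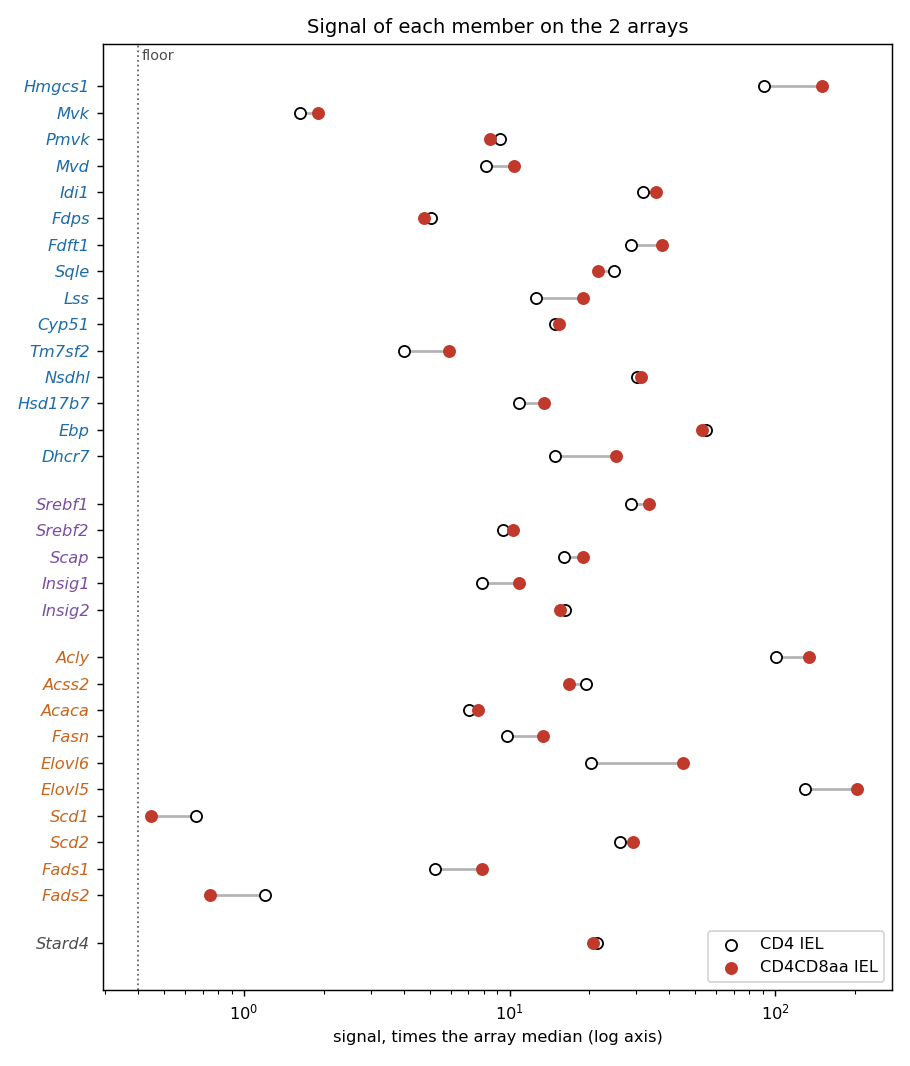
Signal of the brightest probe set of each of the 31 members (log axis, multiples of the array median) in CD4 IEL (open circles) and CD4CD8aa IEL (red circles), 1 array each, ordered by role; the dotted line is the detection floor of 0.4. Elovl6, Dhcr7, Hmgcs1 and Elovl5 have the widest gaps to the right, and Scd1 and Fads2 lie near the floor with gaps to the left.

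The SREBP genes and their gatekeepers were detected on both arrays and close to level. Srebf1, whose SREBP-1 products favour fatty acid genes, had 28.6 and 33.7 (0.23), and the probe set used does not separate its isoforms. Srebf2, which encodes the SREBP of sterol genes, had 9.45 and 10.3 (0.12), and 3.68 and 6.21 (0.75) at its other probe set. Scap, the escort that carries SREBP to the Golgi, had 15.99 and 18.95 (0.25). A dim second probe set of Scap, below the floor in CD4CD8aa IEL, gave -1.26. Insig1, a retention factor that is itself an SREBP target, had 7.85 and 10.8 (0.46), the largest difference of the 5. Insig2, the second retention factor, had 16.2 and 15.5 (-0.06), and its other probe sets gave -0.46 and 0.06. The median of the 5 was 0.23, and none reached 1.5-fold.

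The fatty acid genes held both the highest and the lowest differences of the set. For Elovl6 all 3 probe sets gave more than 2-fold: 20.3 and 44.9, 12.1 and 31.7, and 1.33 and 2.97, log2 differences of 1.14, 1.39 and 1.15. Of all detected genes 4.62% had a difference above that of Elovl6, and of the genes with at least 4 times the array median on both arrays 0.976%. No alternative processing took Elovl6 below 1.12. Elovl5 was bright, at 129.2 and 202.8 (log2 difference 0.65) at a probe set prone to cross-hybridise, but its other probe set, at 64.1 and 70.6, gave 0.14.

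The enzymes that supply and join acetyl units differed less. Acly, the citrate lyase that makes cytosolic acetyl-CoA, had 100.9 and 134.5 (0.41) at a probe set prone to cross-hybridise, and 20.3 and 19.8 (-0.04) at the next brightest, and its other detected probe sets ran from -0.32 to 0.25. Acss2, which makes acetyl-CoA from acetate, lay the other way, at 19.3 and 16.7 (-0.21), with -0.53 at its other detected probe set. Acaca, the carboxylase that makes malonyl-CoA, was level at 7.06 and 7.59. Fasn, fatty acid synthase, had 9.74 and 13.4, a log2 difference of 0.46, near the SD of 0.45.

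Among the desaturases, differences were under 1.5-fold where the signal was well above the floor. Scd2, the stearoyl-CoA desaturase of many non-hepatic tissues, had 26.2 and 29.2 (0.16), with -0.11 and 0.55 at dim probe sets. Scd1, the desaturase prominent in liver and fat, was below the array median, at 0.66 and 0.45 (-0.56), and its other probe set gave 0.83, so that no direction can be read. Fads1, a desaturase of polyunsaturated fatty acids, had 5.26 and 7.85, a log2 difference of 0.58, and 0.43 at its other probe set. Fads2, its partner in making polyunsaturated fatty acids, had 1.204 and 0.741 (-0.70), less than the SD of 0.81 for genes this dim, and its other probe sets gave -0.45 and 0.39. The median of the 10 fatty acid genes was 0.29, and 0.44 over the 8 with a signal of at least 4 times the array median. Stard4, a carrier of cholesterol between membranes, had 21.4 and 20.7 (-0.05) at its brightest probe set. Its others disagreed, with 12.1 and 17.6 (0.54) at one and 12.3 and 9.61 (-0.35) at the next.

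**Figure D3:**
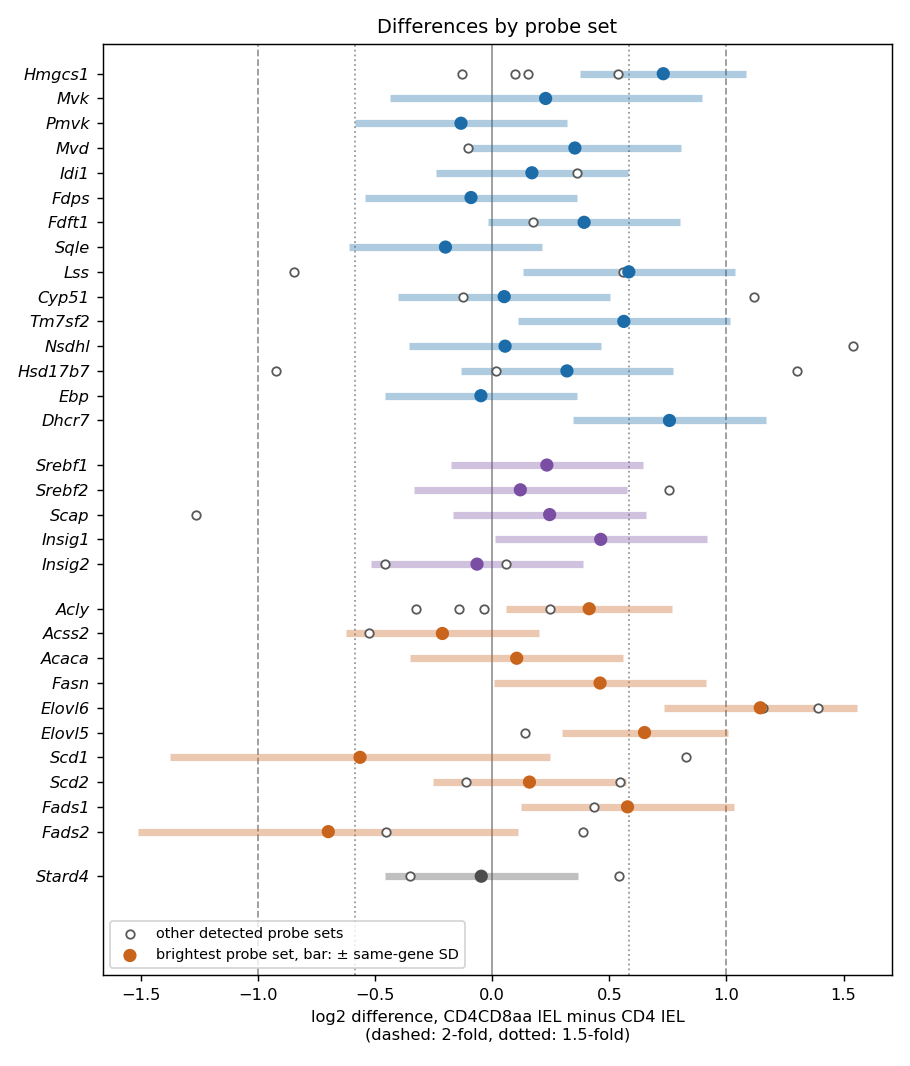
Log2 difference (CD4CD8aa IEL minus CD4 IEL) of every detected probe set of the 31 members, with the brightest as a filled circle and the others open; bars extend 1 same-gene SD to either side of the brightest, and dashed and dotted lines mark 2-fold and 1.5-fold. The 3 probe sets of Elovl6 lie together beyond 2-fold, whereas those of Hsd17b7, Lss, Scap and Fads2 fall on both sides of 0.

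Agreement between probe sets was limited. The members have 69 probe sets, of which 66 were detected, 43 above 0 and 23 below. Of the 20 members with a further detected probe set, 8 had all of them on 1 side of 0 and 12 did not. The probe sets at least 2-fold higher numbered 6, of which 3 were those of Elovl6, and 1 was at least 2-fold lower. The other higher ones, of Cyp51, Hsd17b7 and Nsdhl, and the lower one, of Scap, were each below the floor on 1 array. These counts by probe set were not made over all genes. They therefore do not say whether probe sets of the members disagree more than those of other genes. A further 5 probe sets name a member together with a second locus and were left out. One of them, shared by Mvk and a second locus, read 2.57 and 1.08 (-1.25).

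Other genes of lipid metabolism are given by list, with no test between lists. Every list count stands beside the same shares of all detected genes. Of these, 17.2% were at least 1.5-fold higher, 14.4% were lower by as much and 54.8% lay above 0. Of 7 further sterol synthesis enzymes, all detected, 2 were at least 1.5-fold higher and 0 lower, with a median of 0.08. One of them was Acat2, which joins acetyl-CoA units at the head of the pathway (56.6 and 88.9, log2 difference 0.65). The 6 matched genes of SREBP processing and sterol-regulated degradation all lay within 1.5-fold (median -0.04).

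Sterol uptake and transport genes had a median of 0.01 over 11 genes. At least 1.5-fold higher was 1 and lower were 2, where 17.2% and 14.4% of all detected genes were. Among the lower ones Mylip, a ubiquitin ligase induced by oxysterols, had 12.8 and 6.45 (-0.99). Genes of sterol efflux, oxysterols and storage had a median of 0.32 over 10 (0.63 over the 5 bright ones), with 4 at least 1.5-fold higher and 1 lower. Nr1h2, the oxysterol receptor LXR beta, was 2.04-fold higher (11.0 and 22.5), and Soat2, which esterifies cholesterol for storage, 1.72-fold (22.6 and 38.7), each from a single detected probe set. Cyp7b1 and Cyp27a1, which hydroxylate sterols, had log2 differences of 0.72 and -0.66 at signals below the array median. Both are smaller than the same-gene SD of 0.81, and the other probe set of Cyp7b1 gave -0.40. Where 1 array lies below the floor, as for Cyp7b1 and Cyp27a1, that array is set to the floor in the difference.

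Further genes of fatty acid synthesis and activation had a median of -0.10 over 22 detected genes and of 0.11 over the 10 bright ones, with 2 at least 1.5-fold higher and 5 lower, and all 7 were dim. Among these, Acsl6, an acyl-CoA ligase, had 0.20 and 1.34 (1.74, and -0.49 at its other probe set). Mlxipl, the carbohydrate-responsive factor ChREBP, had 0.91 and 0.05 (-1.18 with the floor) and Scd3 0.12 and 0.86 (1.10 with the floor). Acsl3 read 0.74 and 0.10 (-0.89 with the floor, and 0.43 at its other detected probe set). Fatty acid oxidation genes had a median of 0.09 over 13. At least 1.5-fold higher were 3 and lower were 0, where 17.2% and 14.4% of all detected genes were. The 3 higher ones were Hadha, a subunit of the trifunctional protein (7.19 and 11.9, 0.72), Acadl, a long-chain dehydrogenase (64.4 and 97.9, 0.60, and 1.49 at its other probe set), and the dim nuclear receptor gene Ppara (0.38 and 1.18).

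**Figure D4:**
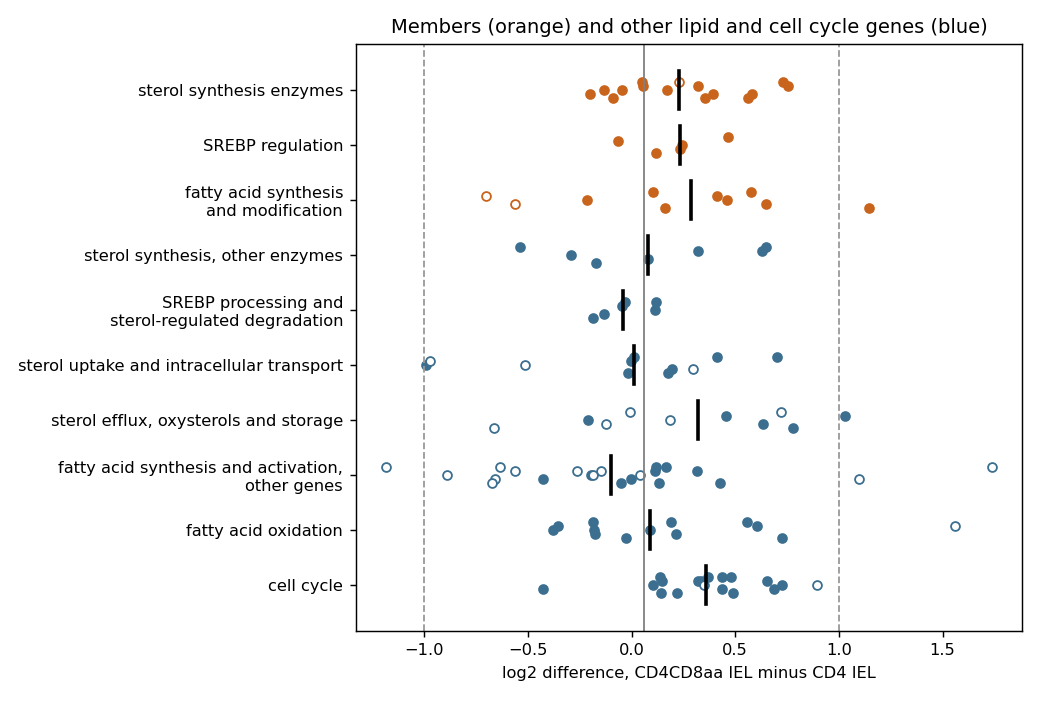
Log2 differences (CD4CD8aa IEL minus CD4 IEL) of detected genes in 3 groups of members (orange) and 7 other gene lists (blue); open circles have a signal under 4 times the array median on at least 1 array, black bars are list medians, the grey line is the median of all detected genes (0.06) and dashed lines mark 2-fold. Medians are 0.23, 0.23 and 0.29 for the members and 0.36 for cell cycle genes.

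Of 18 cell cycle genes, 17 lay above 0, where 54.8% of all detected genes did, and the median was 0.36. In this list 4 were at least 1.5-fold higher, where 17.2% of all detected genes were. Mki67, a marker of cycling cells, had 75.8 and 125.2. The gene below 0 was Pcna, a replication clamp named after its value was seen, at 249.7 and 185.9 (-0.43). Summed over the list, the signal was 764 in CD4 IEL and 862 in CD4CD8aa IEL. Their part in the differences of the lipid genes was not tested.

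Defining T cell genes were bright on both arrays. Cd3e had signals of 59.0 and 118.3, Cd3d 169.9 and 163.2, and Cd3g 270.9 and 335.3, while Cd4 had 72.6 and 86.4 and Cd8a, on which the cells were sorted, 3.79 and 291.4. Of the 12 T cell genes 8 lay above 0 and 4 below. Among the latter, named after their values were seen, were Cd247, of the receptor complex (52.6 and 41.6, -0.34), and Cd2, an adhesion receptor (62.3 and 9.18, -2.76). Of 19 epithelial genes, 6 lay above 0 and 13 below, where 54.8% of all detected genes lay above 0. At least 1.5-fold higher in CD4CD8aa IEL was 1 of them and lower were 7, where 17.2% and 14.4% of all detected genes were. The summed signals of the epithelial genes were 83.1 and 68.8. The defining markers Epcam (1.82 and 2.24), Vil1 (0.43 and 1.12) and Fabp2 (5.22 and 5.51) were all above the floor and higher in CD4CD8aa IEL, although the other probe set of Epcam gave -1.88. Krt18, an epithelial keratin named after its value was seen, lay the other way (13.3 and 4.74, -1.49). Summed signals of B cell genes were 4.86 and 3.40, and those of stromal and endothelial genes 4.18 and 3.23, with Col1a1 below the floor on both arrays and Pecam1 at 2.41 and 0.21. Macrophage and dendritic cell genes summed to 21.5 and 24.3, with Csf1r at 9.79 and 10.2 and Itgax at 1.76 and 5.33. Lipid synthesis genes are active in many cell types, and the part of such cells in the members' signals was not tested.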

How the data were processed

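RNA of CD4 IEL and CD4CD8aa IEL was hybridised to 1 single-colour Affymetrix mouse array each, per the series' design text. The authors deposited raw intensities of 45101 probe sets per array, and normalized intensities; the submitters' processing notes name GCOS 1.2. Per the file headers and a check of the values, the normalized intensities are the raw ones divided by the array median (82.5 and 81.1), and the series matrix holds the same values. The deposited log2 fold, per the file headers CD4 over CD4CD8aa, has the opposite sign to the differences given here. The arrays' trimmed means are equal to within rounding in the raw intensities, so these were already scaled. For background correction and summarisation the sources used here name no method. Further, 2 columns of detection calls, whose headers name no sample, were left aside.

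Raw intensities were divided by the array median (Python 3.11.15, pandas 2.3.3). Values under 0.4, the higher of the arrays' 30th percentiles, were raised to it before log2. Probe sets with 1 symbol (37782) were kept, and the one with the highest mean log2 signal represents a gene; 1399 with several symbols, 5821 with none, 35 with a symbol turned into a date and 64 controls were left out. The same-gene SD rests on 20185 detected probe sets of 7380 genes. With 1 array per group no test was made, and the number of arrays limits the precision. All members are named, and from the other lists up to 4 genes at least 1.5-fold apart with the largest differences, besides defining markers of each cell type; some genes under this rule are not reported here. The members and lists were chosen with earlier results of these data known. List symbols absent from the table were matched through RefSeq synonyms. The calculations were tested on simulated data, whose changes were larger than any member's and whose signals lay almost all above the floor. Alternatives were tried for the floor, the normalization, the source of the values and the choice of probe set.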

Additional observations from a re-analysis of the deposited data

How the results depend on the processing

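Under 11 alternatives, 1 of them added after the data were seen, 1 member was at least 2-fold higher (Elovl6 at 1.12 to 1.15 throughout) and 0 at least 2-fold lower. At least 1.5-fold higher were 3 or 4, but not always the same ones. With the median over the detected probe sets Hmgcs1 fell to 0.15 and Elovl5 to 0.40, while Nsdhl rose to 0.80. Without _s_at and _x_at probe sets Elovl5 fell to 0.14. Besides Elovl6, Dhcr7 stayed past 1.5-fold throughout, at 0.71 or more. Taking the brightest probe set without _s_at and _x_at lowered the median of all members to 0.12, of the sterol enzymes to 0.055 and of the fatty acid genes to 0.12. The median over the detected probe sets of each gene gave 0.15 for the fatty acid genes, and either a floor of 2 on the signal or the restriction to bright members gave 0.44. The count at least 1.5-fold lower was 0 under these last 3 settings and 2 with raw intensities, where Scd1 joined Fads2. Over all alternatives the median of all members ranged from 0.12 to 0.24 and that of the SREBP genes from 0.19 to 0.23. Of 334 values for single members, 7 moved by more than the same-gene SD, all with another choice of probe set. Most of the 334 come from alternatives that keep the probe set and by construction change a bright member little or not at all. The 334 are therefore no measure of stability. Under at least 1 alternative 4 members changed sign: Acly (to -0.04), Mvd (to -0.10), Scap (to -0.51) and Scd1 (to 0.13). No paired analysis was possible because each group has 1 array. Dim members, under 4 times the array median (Mvk, Scd1 and Fads2), are limited by their signal over background.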
